A study of Rattus norvegicus with 40 samples.

Results

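The 5 Ensembl transcripts ENSRNOT00000091731.1, ENSRNOT00000027847.5, ENSRNOT00000076390.1, ENSRNOT00000041177.5 and ENSRNOT00000093649.1 were lower in the liver of SHR-Tti2+/- rats than in wild-type littermates. They were picked from 31715 quantified transcripts for that difference, so their liver values and calls are given as a description, with no p-value, and support nothing further. In the soleus muscle, perirenal fat and hippocampus, which did not enter the choice, the genotypes were tested. Their lengths were 825, 2967, 624, 5166 and 721 bases in the order given.

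RNA of 40 tissue samples from 12 rats was sequenced, with 5 samples per tissue and genotype. All rats were of the spontaneously hypertensive strain SHR/OlaIpcv, and the animals compared were heterozygous Tti2 knock-outs (Tti2+/-) and wild-type rats (Tti2+/+). The knock-out was made with zinc finger nucleases that left a short frameshift deletion in the first exon of Tti2, and a single line was used. The deletion is carried in the germline, so all cells of a Tti2+/- rat hold 1 intact copy, and each tissue was sequenced in bulk. Age and diet of the sequenced rats are not in their labels. The labels name the fat depot peritoneal, whereas the methods name it perirenal.

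Tti2 is a subunit of the TTT complex, which it forms with Telo2 and Tti1. This complex is a co-chaperone that helps the large kinases of the PIKK family, among them mTOR, ATM and ATR, to fold and assemble. Through mTOR and the DNA damage kinases these proteins take part in nutrient sensing, growth and genome maintenance, and the liver is a central organ of glucose and lipid metabolism. The tables pair no transcript with a gene name and the gene tables at hand matched none of the 5 IDs. The function of these transcripts, the level of Tti2 itself and the markers of each tissue are therefore not described here.

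Total estimated counts were between 19176393 and 32713126 per sample, and between 23868012 and 32318812 in the liver. Levels are given as the estimated count of kallisto, the authors' quantification software, as CPM, which are counts scaled to library size with TMM normalization within a tissue, or, between tissues and transcripts, as TPM, which are scaled by transcript length too. A transcript was called when its p-value from edgeR's quasi-likelihood test, adjusted after Benjamini and Hochberg over all transcripts tested in that tissue, was under 0.1 and the genotypes differed at least 1.5-fold. Of 18423 transcripts tested in the liver, 0.103% were called lower in Tti2+/- rats, and 1.30% had each of the 5 Tti2+/- rats below each wild-type rat in CPM. Of the 5 transcripts described here, 4 were called, and all 5 had groups that did not overlap. Both counts come from the contrast that chose the transcripts.

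ENSRNOT00000093649.1 was at 0 in the liver of all 5 Tti2+/- rats. Its estimated counts in the wild-type livers were 30.9, 27.3, 58.1, 33.6 and 16.3, in the order of rats 1, 2, 4, 5 and 6. These counts are low, and the transcript passed the filter on low counts only through the wild-type group. Its mean in wild-type liver was 1.26 ± 0.687 CPM (SD, n = 5). The floor for a transcript at 0 was 3 counts per library, or 0.120 CPM on average. With this floor its estimate was at least 10.5-fold lower in Tti2+/- liver. The bound covers counting error only, and not the division of shared reads between transcripts that is described below.

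ENSRNOT00000076390.1 had the next largest fold of the 5. Its counts were 310, 225, 264, 656 and 147 in wild-type livers and 49.9, 43.1, 52.9, 72.5 and 67.8 in Tti2+/- livers, each in the order of rats 1, 2, 4, 5 and 6. The highest Tti2+/- liver had less than the lowest wild-type liver, and wild-type rat 5 stood above the other wild-type rats. Mean levels were 11.5 ± 5.61 CPM in wild type and 2.27 ± 0.391 CPM in Tti2+/- (SD, n = 5 each). The log2 fold change was -2.34 (SE 0.31), which left 19.8% of the wild-type mean.

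ENSRNOT00000091731.1 followed, with counts of 105, 62.1, 123, 153 and 92.8 in wild-type livers and 25.1, 34.2, 30.1, 35.4 and 33.6 in Tti2+/- livers. Wild-type values spread widely and Tti2+/- values lay close together. Mean levels were 3.96 ± 1.13 and 1.26 ± 0.141 CPM, a log2 fold change of -1.65 (SE 0.22) and 31.9% of the wild-type mean.

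ENSRNOT00000027847.5 had the highest mean level of the called transcripts in CPM. Its wild-type livers held 524, 580, 584, 574 and 562 counts and its Tti2+/- livers 344, 260, 307, 275 and 294. Here both groups were narrow. The means were 21.1 ± 2.38 and 11.9 ± 1.73 CPM, with a log2 fold change of -0.83 (SE 0.11) and 56.3% of the wild-type mean.

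ENSRNOT00000041177.5 had the smallest difference of the 5 and was not called, because its ratio of 1.41 fell short of the limit of 1.5 that ENSRNOT00000027847.5, at 1.78, passed. Its counts were 435, 440, 404, 517 and 504 in wild-type livers and 312, 291, 264, 311 and 337 in Tti2+/- livers. The means were 17.1 ± 1.40 and 12.1 ± 0.608 CPM. The log2 fold change was -0.50 (SE 0.067), and Tti2+/- livers held 70.7% of the wild-type mean. In bulk liver, fewer cells that make a transcript and less of it per cell cannot be told apart.

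**Figure D1:**
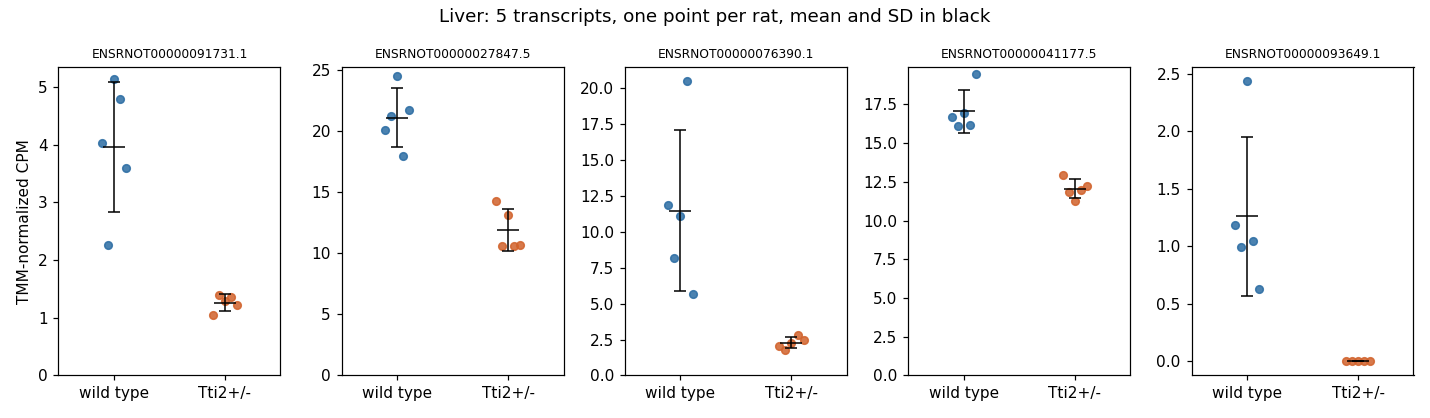
TMM-normalized CPM (y axis, linear, a separate scale per panel) of the 5 transcripts in the livers of wild-type (blue) and Tti2+/- rats (orange), 1 point per rat, with mean and SD in black. Every orange point lies below every blue point in each panel, the orange points of ENSRNOT00000093649.1 are all at 0, and the wild-type points of ENSRNOT00000076390.1 spread from 5.70 to 20.5 CPM.

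The spread among rats of a genotype differed between the transcripts. The coefficient of variation (SD as a share of the mean) in wild-type liver was 54.6% for ENSRNOT00000093649.1, 48.9% for ENSRNOT00000076390.1 and 28.4% for ENSRNOT00000091731.1. It was 11.3% for ENSRNOT00000027847.5 and 8.18% for ENSRNOT00000041177.5, beside a median of 14.1% over all transcripts tested in wild-type liver. In Tti2+/- liver it was 17.2% for ENSRNOT00000076390.1, 14.6% for ENSRNOT00000027847.5, 11.2% for ENSRNOT00000091731.1 and 5.04% for ENSRNOT00000041177.5, with a median of 14.3% over all transcripts.

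The transcripts did not rank the rats in the same order within a genotype. Among wild-type livers, rat 4 was highest for ENSRNOT00000091731.1, ENSRNOT00000027847.5 and ENSRNOT00000093649.1, rat 5 for ENSRNOT00000076390.1 and rat 6 for ENSRNOT00000041177.5. Rat 6 was at the same time the lowest of the wild-type rats for ENSRNOT00000076390.1 and ENSRNOT00000093649.1. Correlations of log2 CPM about the genotype means were computed over 10 rats for the 6 pairs of the 4 transcripts above 0 in both genotypes, with two-sided permutation tests that shuffled rats within genotypes (14400 arrangements). Pearson's r ranged from -0.58 to 0.50, and none of the 6 had a permutation p below 0.05 (Benjamini-Hochberg adjusted p from 0.619 to 0.845 for r).

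The pair with the highest r was ENSRNOT00000091731.1 with ENSRNOT00000076390.1 (r = 0.50, permutation p = 0.317, adjusted p = 0.619; Spearman's rho = 0.59, permutation p = 0.146, adjusted p = 0.439), and r was 0.62 without the 2 rats farthest from the median of the former. The lowest r was that of ENSRNOT00000076390.1 with ENSRNOT00000041177.5 (r = -0.58, permutation p = 0.194, adjusted p = 0.619; rho = -0.22, permutation p = 0.572, adjusted p = 0.687). It turned to 0.16 without the 2 farthest rats, so the negative value rested on them. For ENSRNOT00000091731.1, r moved from -0.19 to -0.81 with ENSRNOT00000027847.5 and from -0.08 to -0.71 with ENSRNOT00000041177.5 when the 2 farthest rats were left out (permutation p = 0.588 and 0.845 over all 10 rats, rho = -0.39 and -0.15 with permutation p = 0.281 and 0.707). ENSRNOT00000027847.5 had r = -0.40 with ENSRNOT00000076390.1 (permutation p = 0.234; rho = -0.54, permutation p = 0.122; -0.59 without the 2 farthest rats). With ENSRNOT00000041177.5 it had r = 0.29 (permutation p = 0.413; rho = 0.27, permutation p = 0.478; 0.09 without them). Over these 10 rats no covariation within genotypes was detected, and the size of correlation that could have been detected was not computed.

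The 5 transcripts had different distributions over the tissues. ENSRNOT00000076390.1 was seen in the liver alone of the tissues sampled, at 23.6 ± 11.3 TPM in wild type, and was at 0 in all 30 samples of the other tissues. Its floor of 3 counts in those tissues corresponds to between 0.118 and 0.147 CPM on average, counting error only. It could not be tested outside the liver.

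ENSRNOT00000027847.5 was present in liver and hippocampus and nearly missing elsewhere. Wild-type rats had 7.07 ± 0.762 TPM in the liver and 6.48 ± 2.21 TPM in the hippocampus, ranges that overlapped, against 0.225 ± 0.0777 TPM in fat and 0.0199 ± 0.0232 TPM in muscle. Fat and muscle values lay below all values of the former tissues.

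ENSRNOT00000041177.5 was found in every sample. Wild-type levels fell from 10.8 ± 1.07 TPM in the hippocampus through 6.51 ± 0.591 in fat and 3.76 ± 0.335 in the liver to 1.86 ± 0.268 in muscle, and no neighbours in this order overlapped. The liver, where the genotypes differed, was thus the third of the 4 tissues by level.

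ENSRNOT00000091731.1 was low everywhere, with 5.72 ± 1.56 TPM in the liver, 3.85 ± 1.63 in fat, 3.12 ± 1.29 in muscle and 1.80 ± 1.25 in the hippocampus. All neighbours in this order overlapped. ENSRNOT00000093649.1 had 3.57 ± 2.07 TPM in the hippocampus, 2.75 ± 0.147 in fat and 2.62 ± 1.40 in the liver, which overlapped, and 0.214 ± 0.478 in muscle, below all wild-type livers.

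**Figure D2:**
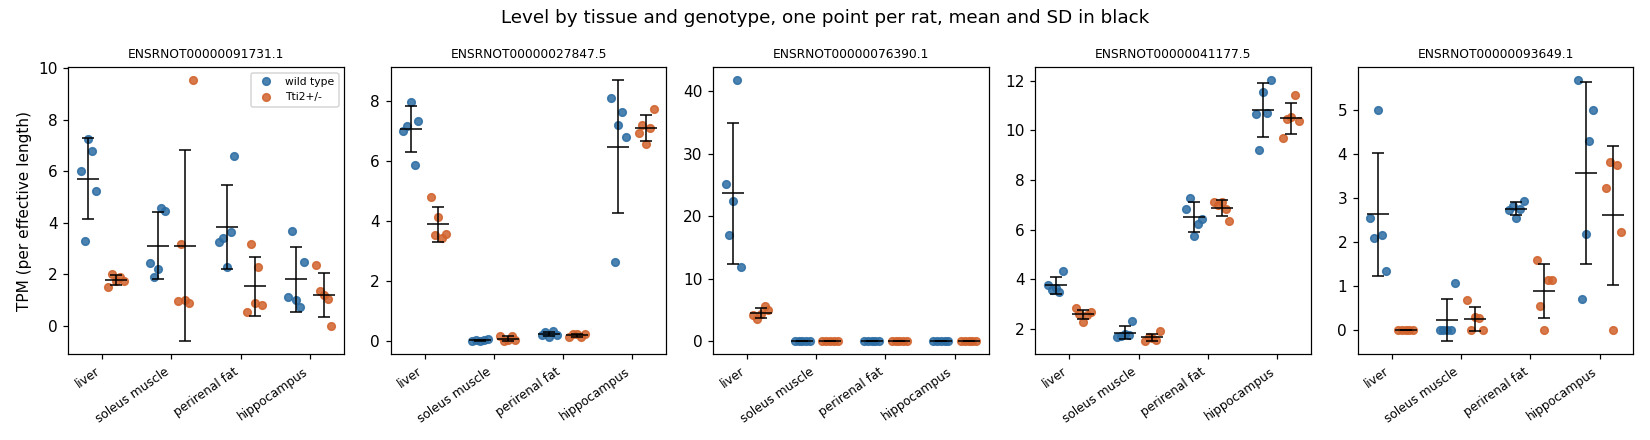
TPM (y axis, linear, a separate scale per panel) of the 5 transcripts in 4 tissues of wild-type (blue) and Tti2+/- rats (orange), 1 point per rat, with mean and SD in black. ENSRNOT00000076390.1 is above 0 only in the liver, ENSRNOT00000041177.5 is highest in the hippocampus at 10.8 TPM, and the genotypes of ENSRNOT00000093649.1 are separated in liver and fat.

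Outside the liver 10 transcript-tissue combinations passed the filter, and edgeR's quasi-likelihood test called none of them lower or higher, with 0 of 2 in muscle, 0 of 4 in fat and 0 of 4 in the hippocampus. Over all transcripts this test called 0.00552% in muscle, 0.00% in fat and 0.00483% in the hippocampus, in either direction. DESeq2 and limma called 0 of the 10 as well, DESeq2 giving no adjusted p for 4 of them. Over all transcripts DESeq2 called 0.221% in muscle, 0.0989% in fat and 0.0531% in the hippocampus, and limma 0.00552%, 0.00% and 0.00966%. At an unadjusted p under 0.05, 2 of the 4 in fat, 0 of 2 in muscle and 0 of 4 in the hippocampus were lower, beside 3.15%, 3.16% and 2.16% of all transcripts tested. Single transcripts were also compared by a two-sided exact permutation test of mean CPM over the 252 ways of dividing 10 samples, which allows no p below 0.0079. This test was run on these 10 combinations, and 2 of them, both in fat, had p under 0.05. These exact p-values were not adjusted for the number of tests. The share of all transcripts with such a p was not computed. The p-values measure the spread between the sampled rats of 1 line.

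In fat, ENSRNOT00000093649.1 was again lower. Its counts were 28.5, 32.3, 28.8, 30.3 and 33.8 in wild-type rats 1 to 5 and 15.3, 5.41, 0, 11.5 and 13 in Tti2+/- rats 1 to 5. No Tti2+/- rat reached the lowest wild-type rat, an order seen for 0.598% of all transcripts tested in fat. Means were 1.21 ± 0.0665 and 0.379 ± 0.266 CPM, with a log2 fold change of -1.67 (SE 0.61, 95% interval -3.01 to -0.33). The exact permutation p was 0.0079, the smallest the design can give, whereas the adjusted p of edgeR was 0.691.

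ENSRNOT00000091731.1 was lower in the mean in fat, and here the genotypes overlapped. Wild-type rats had 47.7, 54.7, 36.7, 56.1 and 107 counts and Tti2+/- rats 7.47, 46.4, 12.5, 33 and 12.7. Tti2+/- rat 2 lay within the wild-type range and the other 4 below it. Means were 2.37 ± 1.00 and 0.936 ± 0.698 CPM, and the log2 fold change was -1.34 (SE 0.49, 95% interval -2.43 to -0.25; exact permutation p = 0.016; edgeR adjusted p = 0.691).

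The remaining 2 transcripts tested in fat had small differences with overlapping genotypes. ENSRNOT00000041177.5 had 595 to 750 counts in wild-type and 627 to 659 in Tti2+/- fat, with a log2 fold change of 0.06 (SE 0.054, 95% interval -0.06 to 0.18; exact permutation p = 0.286; edgeR adjusted p = 0.881). Its liver log2 fold change of -0.50 lay outside this interval, but the difference between the tissues was not tested. ENSRNOT00000027847.5 was scarce in fat, with 8.63 to 21.3 counts in wild type and 8.26 to 14.6 in Tti2+/-, and its log2 fold change was -0.25 (SE 0.32, 95% interval -0.96 to 0.45; exact permutation p = 0.373; edgeR adjusted p = 0.916).

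In the soleus muscle, ENSRNOT00000091731.1 had counts of 45.9, 36.0, 38.3, 93.2 and 80.2 in wild-type rats 2 to 6 and 17.5, 60.7, 20.5, 16.4 and 178 in Tti2+/- rats 2 to 6. Tti2+/- rats 2, 4 and 5 were below all wild-type rats and rat 6 was above all of them, so that the genotypes overlapped (0.502% of all transcripts tested in muscle had Tti2+/- rats wholly below wild type). The log2 fold change was 0.03 (SE 0.63, 95% interval -1.36 to 1.43; exact permutation p = 0.992; edgeR adjusted p = 0.995), and without Tti2+/- rat 6 it was -0.96. ENSRNOT00000041177.5 had 194 to 257 counts in wild-type and 170 to 221 in Tti2+/- muscle, a log2 fold change of -0.12 (SE 0.092, 95% interval -0.32 to 0.09; exact permutation p = 0.214; edgeR adjusted p = 0.817).

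The others were too scarce to test in muscle. ENSRNOT00000027847.5 had at most 3.79 counts in wild-type and 11.2 in Tti2+/- muscle. ENSRNOT00000093649.1 had 13.3 counts in wild-type rat 6 and at most a trace in the other wild-type rats, and in Tti2+/- rats 2 to 6 it had 8.46, 0, 3.88, 3.32 and 0.

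In the hippocampus the genotypes of all 4 transcripts tested overlapped, where 0.589% of all transcripts had every Tti2+/- rat below every wild-type rat. ENSRNOT00000041177.5 was here measured most precisely, with 710 to 1089 counts in wild-type and 667 to 816 in Tti2+/- rats and a log2 fold change of -0.05 (SE 0.062, 95% interval -0.19 to 0.09; exact permutation p = 0.444; edgeR adjusted p = 0.943). Its liver log2 fold change lay outside this interval too, but it had been chosen for being low and the difference between the tissues was not tested. ENSRNOT00000027847.5 had 430, 203, 303, 330 and 337 counts in wild-type rats 1, 2, 3, 5 and 6 and 315, 346, 303, 333 and 343 in Tti2+/- rats 1 to 5.

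The low value of ENSRNOT00000027847.5 was that of wild-type rat 2, whose hippocampus also lay farthest from the others on the principal components. The log2 fold change was 0.15 (SE 0.24, 95% interval -0.38 to 0.67; exact permutation p = 0.706; edgeR adjusted p = 0.946), and -0.050 without this sample. The study removed 1 outlying hippocampus sample, which it does not name, whereas all hippocampus samples were kept in the main fit here. ENSRNOT00000091731.1 was low and variable, with 7.33 to 67.0 counts in wild type, the highest in rat 2, and 0 to 25.4 in Tti2+/- (log2 fold change -0.65, SE 0.75, 95% interval -2.31 to 1.01; exact permutation p = 0.452; edgeR adjusted p = 0.942). This value was -0.16 without wild-type rat 2 and -1.05 without Tti2+/- rat 1, the extremes with 1 sample left out. The liver log2 fold change of ENSRNOT00000091731.1, -1.65, lies within the interval, so a fall of that size was not excluded. ENSRNOT00000093649.1 had 9.23 to 50.5 counts in wild type, the lowest in rat 2, and 0 to 30.6 in Tti2+/- (log2 fold change -0.43, SE 0.77, 95% interval -2.14 to 1.27; exact permutation p = 0.421; edgeR adjusted p = 0.948). It was -0.11 without Tti2+/- rat 3 and -0.71 without wild-type rat 2, again the extremes.

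**Figure D3:**
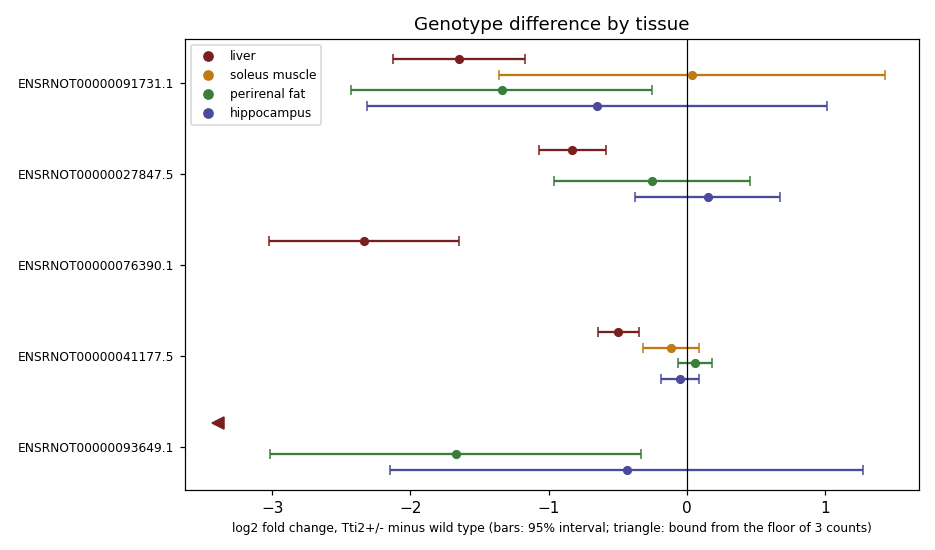
Log2 fold change, Tti2+/- minus wild type (x axis), of each transcript in each tissue where it passed the filter, with 95% intervals as bars. All liver values (dark red) are below 0 by the choice of the transcripts, so the liver bars are a description without 95% coverage. The triangle marks the bound of ENSRNOT00000093649.1 in the liver from the floor of 3 counts. In fat (green) the values of ENSRNOT00000091731.1 and ENSRNOT00000093649.1 are -1.34 and -1.67.

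Kallisto divides reads that match several transcripts between them, so an estimated count need not be whole. ENSRNOT00000041177.5 had a whole count in 40 of 40 samples, to within 5e-04, so no divided reads were seen in it. Of the samples in which the others were above 0, the count was whole in 0 of 39 for ENSRNOT00000091731.1, 4 of 38 for ENSRNOT00000027847.5, 0 of 10 for ENSRNOT00000076390.1 and 1 of 28 for ENSRNOT00000093649.1. For each of these 4, all other transcripts were searched for the one whose estimated count adds up with it to a whole number, to within 0.02, in most samples. The search was set up after the values had been seen.

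ENSRNOT00000093649.1 gave a whole sum with ENSRNOT00000064660.3, of 1386 bases, in 27 of the 27 samples where its own count was not whole, and the next best transcript in 7. For ENSRNOT00000027847.5 the transcript was ENSRNOT00000089004.1, of 4393 bases, in 32 of 32 samples, with 6 for the next best. For ENSRNOT00000091731.1 it was ENSRNOT00000000628.4, of 1860 bases, in 27 of 38 samples or 71.1%, with 8 for the next best, so some of its reads were shared more widely. Each of these partners stands in the row next to the transcript in the tables. For ENSRNOT00000076390.1 the best candidate reached 5 of 10 samples and was not taken.

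The sum of a pair does not depend on how kallisto divided reads between its members, apart from reads shared with further transcripts. For ENSRNOT00000093649.1 the sum was not lower in Tti2+/- liver, while its share of the sum was. The pair held 806, 855, 731, 909 and 730 counts in wild-type livers and 780, 846, 759, 802 and 868 in Tti2+/- livers. Mean sums of 29.9 ± 1.45 and 32.4 ± 1.37 CPM overlapped between genotypes, with a log2 fold change of 0.12 (SE 0.049). ENSRNOT00000093649.1 took 4.18 ± 2.19% of the pair in wild-type livers, from 2.24 to 7.94%, and 0% in all 5 Tti2+/- livers. The partner alone was 28.6 ± 1.30 CPM in wild-type and 32.4 ± 1.37 CPM in Tti2+/- livers, above all wild-type livers.

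In fat, whose samples the choice of the 5 transcripts had not used, the share was lower as well. The pair was found over all samples after the values had been seen. Since the summed levels overlapped, the share mainly restates the lower count in fat given above and is no second result. Of the 5 rats of each genotype, 4 gave both a liver and a fat sample (numbers 1, 2, 4 and 5), so fat and liver are not independent sets of rats. ENSRNOT00000093649.1 took 5.88 ± 0.550% of the pair in wild-type fat, from 5.32 to 6.53%, and 1.97 ± 1.45% in Tti2+/- fat, from 0 to 3.8% (two-sided exact permutation p = 0.0079, 1 of 9 shares tested outside the liver). The summed level was 20.6 ± 0.820 CPM in wild-type and 19.4 ± 1.39 CPM in Tti2+/- fat, a log2 fold change of -0.09 (SE 0.059, 95% interval -0.22 to 0.04; exact permutation p = 0.127; edgeR adjusted p = 0.803). In the hippocampus the shares were 6.56 ± 3.58% and 5.18 ± 3.19% (exact permutation p = 0.524).

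For ENSRNOT00000027847.5 the pair fell in the liver with the transcript. Summed counts were 566, 614, 626, 640 and 620 in wild-type and 394, 300, 350, 315 and 334 in Tti2+/- livers, with no overlap. The mean sums were 22.9 ± 2.36 and 13.6 ± 1.97 CPM, a log2 fold change of -0.75 (SE 0.11) against -0.83 for the transcript alone. It made up 92.1 ± 1.94% of the pair in wild-type and 87.5 ± 0.562% in Tti2+/- livers, and the partner's counts overlapped, at 34.5 to 66.2 and 39.7 to 50.1. In the other tissues the log2 fold change of the sum was 0.64 in muscle, on 5 to 19 counts (exact permutation p = 0.071), -0.01 in fat (exact permutation p = 0.968) and 0.16 in the hippocampus (exact permutation p = 0.659).

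For ENSRNOT00000091731.1 both members of the pair were lower in the mean in Tti2+/- liver, and the genotypes of the sum overlapped. Summed counts were 594, 430, 611, 863 and 532 in wild-type and 308, 451, 165, 184 and 262 in Tti2+/- livers, so that Tti2+/- rat 2 passed wild-type rat 2. Mean sums were 22.3 ± 4.45 and 11 ± 4.77 CPM, with a log2 fold change of -1.03 (SE 0.26) against -1.65 for the transcript alone. The spread of the sum among Tti2+/- livers was thus far wider than that of ENSRNOT00000091731.1 itself, whose share of the pair ran from 7.59 to 19.3% there and from 14.4 to 20.1% in wild-type livers.

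In fat the sum of this pair separated the genotypes. It held 271, 311, 256, 300 and 367 counts in wild-type rats 1 to 5 and 180, 224, 215, 191 and 221 in Tti2+/- rats 1 to 5, or 11.8 ± 1.5 and 8.59 ± 0.572 CPM. The log2 fold change was -0.46 (SE 0.097, 95% interval -0.68 to -0.25; exact permutation p = 0.0079; edgeR adjusted p = 0.673). The partner ENSRNOT00000000628.4 also had all Tti2+/- rats below all wild-type rats in fat, an order seen for 0.598% of all transcripts tested there. It was at 9.47 ± 0.633 CPM in wild type and 7.65 ± 0.661 CPM in Tti2+/-. The sum had log2 fold changes of -0.29 in muscle (exact permutation p = 0.651) and -0.61 in the hippocampus (exact permutation p = 0.111), with overlapping genotypes. Of the 9 sums tested outside the liver, this one in fat was the only one with an exact permutation p under 0.05.

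**Figure D4:**
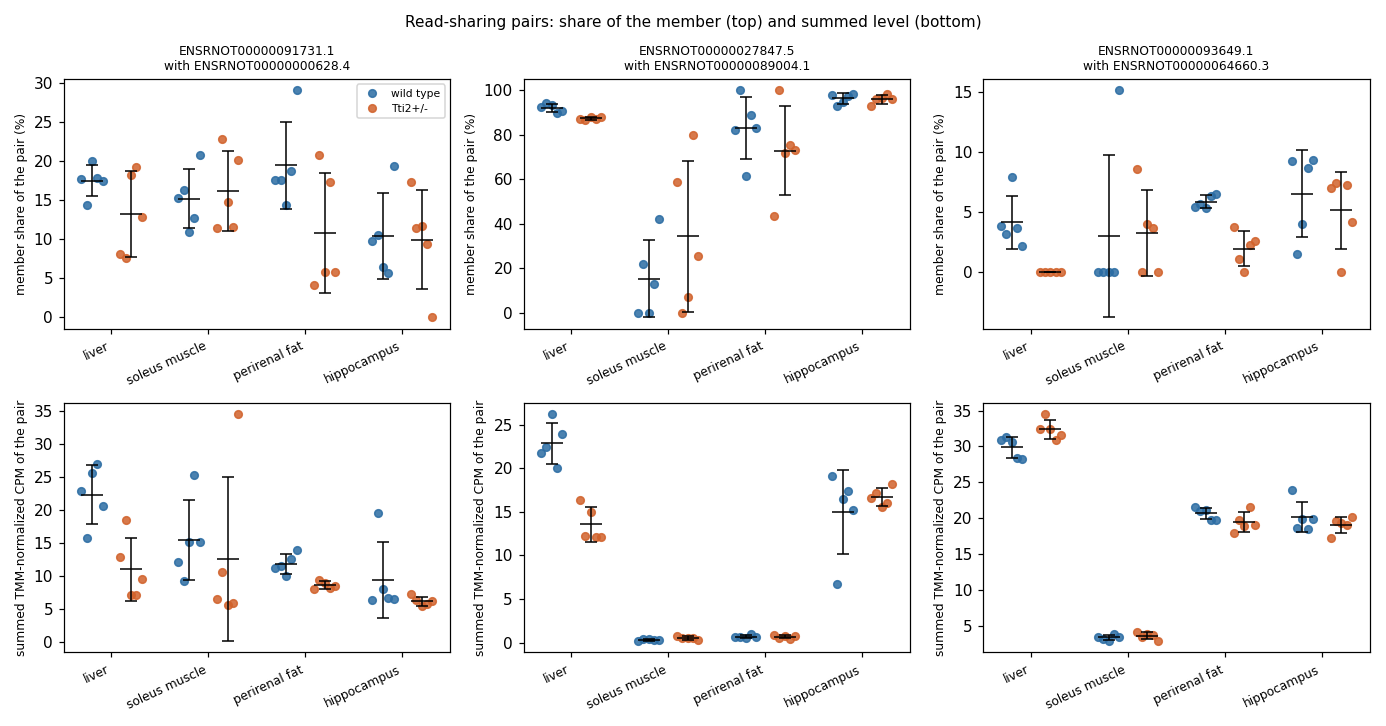
Share of each transcript in its read-sharing pair in percent (top row) and summed TMM-normalized CPM of the pair (bottom row) by tissue (x axis) for 3 pairs, wild type in blue and Tti2+/- in orange, 1 point per rat, with mean and SD in black. In the right column the share of ENSRNOT00000093649.1 in the liver is 4.18% in wild type and 0% in Tti2+/- while the summed levels overlap, and in the middle column the liver sum of ENSRNOT00000027847.5 falls from 22.9 to 13.6 CPM.

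The transcripts with the most similar pattern were looked for by Pearson's correlation of log2 CPM over all 40 samples, among 23477 transcripts. These correlations were taken over the 4 tissues and both genotypes together and are given as a description. How much of them came from differences between tissues was not computed. ENSRNOT00000091731.1 was most like its read-sharing partner ENSRNOT00000000628.4 (r = 0.90). ENSRNOT00000076390.1 was most like ENSRNOT00000077603.1 (r = 0.98), which was at 2.61 ± 0.883 TPM in wild-type and 1.00 ± 0.151 TPM in Tti2+/- liver, with counts of 216 to 652 and 108 to 151. Unlike ENSRNOT00000076390.1 it was present in all other tissues, at 0.259 to 1.13 TPM in the group means.

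ENSRNOT00000093649.1 was most like ENSRNOT00000082809.1 (r = 0.71), which had whole counts of 371 to 897 in wild-type and 224 to 280 in Tti2+/- liver, 8.46 ± 2.43 and 3.32 ± 0.418 TPM. In fat ENSRNOT00000082809.1 was at 7.52 ± 0.665 and 6.95 ± 0.295 TPM. ENSRNOT00000027847.5 was most like ENSRNOT00000015281.4 (r = 0.99), which was at 6.02 ± 0.984 and 5.18 ± 0.976 TPM in wild-type and Tti2+/- liver and at 7.91 ± 1.44 and 8.16 ± 0.711 TPM in the hippocampus. ENSRNOT00000041177.5 was most like the abundant ENSRNOT00000086310.1 (r = 0.93), at 200 ± 38.3 and 144 ± 17.2 TPM in wild-type and Tti2+/- liver. The closest neighbour of ENSRNOT00000093649.1 was the least similar of these, and no transcript reached r = 0.80 with it.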

How the data were processed

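The authors enriched polyadenylated RNA, made strand-specific single-end libraries and quantified them with kallisto (0.46.0 with build rn6 in the submitters' processing notes) on Ensembl transcripts, with bias correction. The deposited tables hold the estimated count (or expected count, whole or not) and the TPM of 31715 transcripts, together with length and effective length, another quantity used only as deposited. The repeated estimates that kallisto draws from a library's own reads, which the study's test used, were not used here.

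In R 4.3.3, rounded estimated counts of each tissue were fitted separately with edgeR 4.0.16 (TMM, quasi-likelihood test of genotype, no covariate). Kept for testing, over the whole table, were transcripts with 5 or more counts in 47% or more of a tissue's samples, and calls needed a Benjamini-Hochberg adjusted p under 0.1 with a 1.5-fold difference. Log2 CPM used a prior count of 1. Transcripts at 0 were given a floor of 3 counts per library, and floors cover counting error only. Two-sided exact permutation tests compared single values. DESeq2 1.42.0, limma 3.58.1 on log2 CPM, other filters and thresholds, log2(TPM + 0.1), a replicate block and the omission of each sample were alternatives. The scripts were tested on simulated data. Sums were fitted in a table in which each pair was replaced by its sum. A partner was accepted where the sum was whole in at least 70% of samples, a limit set after the counts had been seen.

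Groups came from the sample labels. Rat numbers mark different animals in the genotypes, and same-numbered samples deviated together with correlations from -0.12 to 0.08, so no block was used. The members and lists were chosen with earlier results of these data known. The rule named the 5 transcripts and the 1 transcript most like each over all samples, and the partners were named after their values had been seen. No gene symbol or sequence is given, since the gene tables at hand matched none of the IDs.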

Additional observations from a re-analysis of the deposited data

Results flagged for a closer look

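In 33 groups of 5 samples, 1 for each transcript, tissue and genotype that varied, the highest or lowest sample was compared with the others by Dixon's ratio of gap to range. Chance alone gives such a flag in about 1 of 20 groups, or 1.65 of 33, and 3 were found. The muscle of Tti2+/- rat 6 had 6.95 CPM of ENSRNOT00000091731.1 where the next rat had 2.40 CPM, and its read-sharing partner ENSRNOT00000000628.4 was also highest there, with 706 counts. The liver of wild-type rat 6 had 19.5 CPM of ENSRNOT00000041177.5 where the next had 16.9 CPM, on the far side from the Tti2+/- rats. The muscle of wild-type rat 6 had 0.524 CPM of ENSRNOT00000093649.1, from 13.3 of the 88 counts of its pair, where the other wild-type rats had none or a trace.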

How the results depend on the processing

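In the liver 4 of the 5 transcripts were called, and under most alternatives 3 to 5 were, in the contrast that chose them, so that these counts are a description and no support. The number called over all transcripts moved with the setting too. Of 18423 tested in the liver, DESeq2 called 119 in either direction, and edgeR without the fold-change limit called 77. The 0.103% given for the main setting counts only transcripts lower in Tti2+/- liver and is not comparable with these. With the rat number as a replicate block 2 were called, ENSRNOT00000027847.5 and ENSRNOT00000076390.1, but the numbers mark different animals and pair no samples. The same 2 were called when each transcript with an accepted read-sharing partner was summed with it, a setting added after the data had been seen. ENSRNOT00000076390.1 had no accepted partner and entered that fit unsummed, so its call there is no check on shared reads. Over all transcripts, in either direction, 11 of 18423 were called with the replicate block and 34 of 18420 with the sums. When 1 liver sample at a time was left out, 3 to 4 of the 5 were called. Over all transcripts, calls in either direction then ran from 11 of 18209 without wild-type rat 4 to 57 of 18193 without wild-type rat 6. Of the 5, the count was 3 without any 1 wild-type liver, because ENSRNOT00000093649.1 then no longer passed the filter on low counts. DESeq2 gave this transcript no adjusted p and called 3 of the 5. In muscle, fat and hippocampus 0 of the 5 were called in each setting, also when any 1 sample was left out (0 to 0). Over all transcripts, from 0 to 40 were called in muscle, 0 to 20 in fat and 0 to 11 in the hippocampus, the most by DESeq2. By the exact permutation test, 2 of the 5 transcripts in fat and 0 in muscle and hippocampus had p under 0.05 when any 1 sample was left out. These p-values were unadjusted, and the share over all transcripts was not computed. Of the within-genotype correlations, 0 had a Benjamini-Hochberg adjusted permutation p under 0.05 when any 1 sample was left out. Of 260 alternative log2 fold changes 250 kept their direction, including all 74 in the liver, which cover 4 of the 5 transcripts. ENSRNOT00000093649.1, at 0 in all Tti2+/- livers, was left out of these liver values, and its sum with its partner had a log2 fold change of 0.12. The exceptions were ENSRNOT00000091731.1 in muscle, at 0.03, which was -0.52 with limma, -0.49 with the replicate block, -0.29 when summed with its partner, -0.55 on log2(TPM + 0.1) and between -0.96 and 0.27 with 1 sample left out, the lowest without Tti2+/- rat 6, and ENSRNOT00000027847.5 in the hippocampus, at 0.15, which was between -0.050 and 0.26, the lowest without wild-type rat 2, the sample farthest on the principal components. The causes were not tested. At this depth a transcript at 0 may have up to 3 counts, or 0.120 CPM in Tti2+/- liver.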
